A study of Mus musculus with 8 samples.

Results

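The genes described here encode 8 parts of the Notch pathway: the ligand Jag1, the receptors Notch1 and Notch2, the sheddases Adam10 and Adam17, the DNA-binding protein Rbpj, the coactivator Maml1 and the target gene Hes1. They were taken by symbol from a table of 24940 genes, and all 8 have a row. The values are RPKM, the reads on the exons of a gene divided by exon length and by the reads of the library. The cells were primary macrophages grown from the bone marrow of C57BL/6 mice aged 6 to 8 weeks, kept in M-CSF (the macrophage growth factor) at 30 ng/ml. Osteoclasts, the cells that resorb bone, form from such macrophages when RANKL is added.

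There were 4 groups of 2 libraries each. In the labels these are NCsh_No RANKL, NCsh_RANKL, TMBIM6sh_No RANKL and TMBIM6sh_RANKL, with RANKL at 100 ng/ml for 24 h. TMBIM6sh names a short hairpin RNA against Tmbim6, a membrane protein of the endoplasmic reticulum, and the series describes these cells as depleted of it. Tmbim6 was at 309 to 334 RPKM in the NCsh libraries and 10.0 to 11.7 in the TMBIM6sh libraries. What NCsh stands for is not said. With 1 hairpin per target, a lack of Tmbim6 and an off-target action of the hairpin cannot be told apart. Nothing says whether duplicates were separate animals or cultures, so every p-value below measures only the spread between these libraries, which may be technical.

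Notch signalling passes between touching cells. A ligand such as Jagged1 on one cell pulls on a Notch receptor on the next, ADAM10 or ADAM17 cuts the receptor outside the membrane, and gamma-secretase cuts it again inside. The freed intracellular domain enters the nucleus and joins RBPJ and a Mastermind protein (MAML1) on DNA, which switches on targets such as Hes1; without it RBPJ sits with corepressors. In macrophages RBPJ is known as a brake on osteoclast formation, acting on the regulators IRF8, BLIMP1 (gene Prdm1), c-Fos and NFATc1.

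Rbpj and Jag1 rose with the TMBIM6sh hairpin both without and with RANKL. The bases upstream of Notch2 hold the NF-kappaB consensus, a site for the factors that RANKL signalling switches on. In the main fit Notch2 was not called with RANKL, and whether the site bears on its level was not tested. For these genes the bases just upstream of the start site are shown. They are the 250 bases before the RefSeq start site in GRCm38.p6 (the assembly behind mm10), 5′ to 3′ on the strand of the gene. Capitals mark the core letters bound by RBPJ, TGGGAA on either strand, and in Notch2 the NF-kappaB consensus.
Rbpj: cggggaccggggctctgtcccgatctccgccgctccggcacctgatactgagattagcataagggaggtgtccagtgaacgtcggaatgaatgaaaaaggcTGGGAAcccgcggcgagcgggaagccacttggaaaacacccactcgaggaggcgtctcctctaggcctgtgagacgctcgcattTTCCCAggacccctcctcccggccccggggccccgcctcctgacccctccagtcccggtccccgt
Jag1: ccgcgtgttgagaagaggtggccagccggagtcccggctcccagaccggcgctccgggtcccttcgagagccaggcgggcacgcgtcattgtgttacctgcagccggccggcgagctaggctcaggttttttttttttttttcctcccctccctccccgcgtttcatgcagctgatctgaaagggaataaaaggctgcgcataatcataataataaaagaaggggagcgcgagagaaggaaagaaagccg
Notch2: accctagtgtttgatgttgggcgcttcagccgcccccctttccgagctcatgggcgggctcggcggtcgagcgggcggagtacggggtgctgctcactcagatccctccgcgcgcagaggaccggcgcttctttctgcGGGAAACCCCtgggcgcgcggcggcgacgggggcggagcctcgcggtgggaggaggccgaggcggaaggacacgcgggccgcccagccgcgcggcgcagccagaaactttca
The Rbpj window is chr5:53590096-53590345 on the plus strand, the Jag1 window chr2:137116521-137116770 on the minus strand and the Notch2 window chr3:98013288-98013537 on the plus strand. The Rbpj window held TGGGAA on its own strand at -149 to -144 from the start site and on the other strand, printed as its reverse complement, at -65 to -60. Of the 32841 upstream windows of the same length in the RefSeq table, 21.6% held those letters at least once. Of the 7 genes with an entry, only Rbpj held them among the windows searched. The longer form GTGGGAA, present in 5.41% of windows, and the AP-1 letters TGANTCA, present in 6.75%, were in none of the 7. The Notch2 window held the NF-kappaB consensus at -112 to -103, as did 3.90% of all windows. Adam10 held the E-box CACGTG at -64 to -59, as did 6.02% of windows. The Jag1 window held no match to these 5 motifs. A match of letters is a description of the window and does not show binding.

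**Figure D1:**
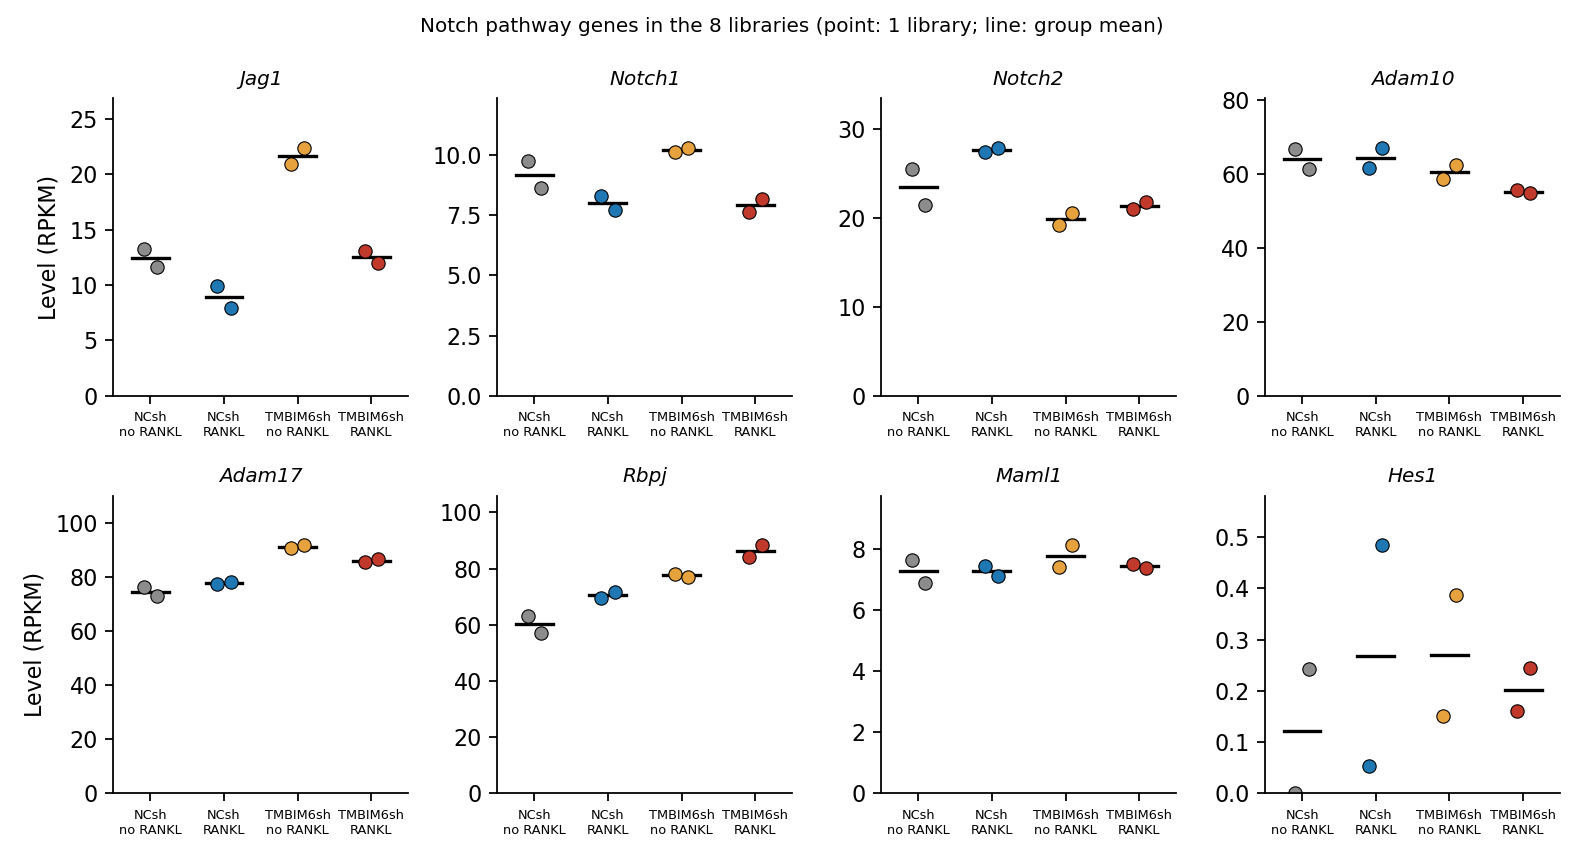
Levels in RPKM (vertical axes, linear, starting at 0) of the 8 genes in each library, by group along the horizontal axis. Points are single libraries and lines are group means; Jag1 stands at 20.9 and 22.4 RPKM with TMBIM6sh and no RANKL, above the other 6 libraries, and Hes1 stays below 1 RPKM throughout.

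Per kilobase of exon, the 3 genes with the highest levels in each group were Adam17, Rbpj and Adam10. In the NCsh libraries without RANKL the mean levels ran from 74.7 RPKM for Adam17 through 64.0 for Adam10 and 60.2 for Rbpj to 23.5 for Notch2, 12.4 for Jag1, 9.19 for Notch1, 7.27 for Maml1 and 0.122 for Hes1. Adam10 and Rbpj were neighbours whose libraries overlapped there, as were Jag1 and Notch1 in NCsh with RANKL. With both TMBIM6sh and RANKL, Rbpj (86.3) and Adam17 (86.1) headed the order and overlapped. The order changed in the middle: in TMBIM6sh without RANKL, Jag1 (21.7) stood above Notch2 (19.9), and no library of the first was as low as a library of the second. Hes1 did not reach 1 RPKM in at least 2 libraries and was not tested, so 7 of the 8 genes entered the fits.

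Jag1, the ligand, fell with RANKL and rose with the TMBIM6sh hairpin, and it varied most among the tested genes, by 2.82-fold between its highest and lowest library. Jag1 lies at chr2:137081451-137116520 on the minus strand and has 26 exons. Its levels in the NCsh libraries were 13.2 and 11.6 RPKM without RANKL and 9.94 and 7.94 with it. In the TMBIM6sh libraries they were 20.9 and 22.4 RPKM without RANKL and 13.0 and 12.0 with it. The groups did not overlap in any of these comparisons, and the TMBIM6sh libraries with RANKL lay at the level of the NCsh libraries without it. Groups of 2 that do not overlap reach a two-sided permutation p of only 0.333, so non-overlap here and below is a description. In bulk RNA, fewer cells of a type and less RNA per cell cannot be told apart.

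Jag1 fell with RANKL in NCsh, with a log2 difference of -0.44 ± 0.105 (SE, on log2(RPKM + 1), limma adjusted p = 0.0221), 28.0% in mean RPKM. In TMBIM6sh the log2 difference was -0.75 ± 0.105 (adjusted p = 0.00124), or 42.2%. The 95% interval of the difference between these changes ran from -0.64 to 0.02, so a different response to RANKL was not shown (log2 -0.31, adjusted p = 0.639). With the hairpin, Jag1 rose by 0.76 ± 0.105 without RANKL (adjusted p = 8.07e-04), a mean of 1.75 times the NCsh level. With RANKL it rose by 0.45 ± 0.105 (adjusted p = 0.0108), or 1.40 times.

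The calls on Jag1 in TMBIM6sh under RANKL and for the hairpin without RANKL held in each of 15 alternatives. The fall in NCsh was lost without NCsh_No RANKL replicate 1 (adjusted p = 0.0912) and without NCsh_RANKL replicate 2 (0.134), with no filter on low values (0.0882) and in a fit of those 4 libraries alone (0.0652). The rise with RANKL present was lost without NCsh_RANKL replicate 2 (0.0782), without TMBIM6sh_RANKL replicate 1 (0.0775) and with no filter (0.0528). Jag1 is also made by endothelial and stromal cells. Of 7 endothelial markers 5 stayed below 1 RPKM in every library and Emcn was at 0. Without RANKL the endothelial markers summed to 4.79 to 5.93 RPKM in NCsh and 3.96 to 4.79 in TMBIM6sh. With RANKL they summed to 5.54 to 5.95 against 3.78 to 3.95 RPKM. Single markers differed in direction. Without RANKL the mean of Pecam1 was 2.87 RPKM in NCsh and 2.04 in TMBIM6sh, and that of Cdh5 was 0.47 and 0.76. Cdh5 stayed below 1 RPKM and was not tested. The 2 tested markers were Pecam1 and Vwf. With the hairpin under RANKL, Pecam1 was called lower (log2 -0.53, limma adjusted p = 0.0219). Vwf was not called there (log2 -0.40, adjusted p = 0.0506). Of 10 stromal and osteoblast markers 7 stayed below 1 RPKM, with sums of 4.57 to 5.56 RPKM over the 8 libraries. Here too directions differed. Without RANKL the mean of Col1a1 was 0.72 RPKM in NCsh and 1.26 in TMBIM6sh, and that of Runx2 was 2.25 and 1.80. Whether such cells bear on the Jag1 differences was not tested.

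No other ligand reached the level for a test. Jag2 was measured at 0.531 to 0.876 RPKM, Dll1 at no more than 0.041 RPKM and Dll4 at no more than 0.041 RPKM, and Dll3 was listed at 0 in all 8 libraries, which allows up to 3 reads in each. Jag1 was therefore the ligand with the highest level per exon length in these cells under every condition.

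Of the receptors, Notch1 fell with RANKL in the TMBIM6sh libraries and Notch2 was lower with the hairpin under RANKL. Notch1 (chr2:26457902-26503822, minus strand, 34 exons) was at 9.77 and 8.61 RPKM in NCsh without RANKL, 8.32 and 7.70 in NCsh with RANKL, 10.1 and 10.3 in TMBIM6sh without RANKL, and 7.65 and 8.16 in TMBIM6sh with RANKL. Its 4 libraries with RANKL all lay below its 4 without. Notch2 (chr3:98013538-98150367, plus strand, 34 exons) was at 25.5 and 21.4 RPKM in NCsh without RANKL, 27.5 and 27.9 in NCsh with RANKL, 19.2 and 20.5 in TMBIM6sh without RANKL, and 21.0 and 21.8 in TMBIM6sh with RANKL. Its highest levels were in NCsh with RANKL and its lowest in TMBIM6sh without it.

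The log2 difference of Notch1 with RANKL was -0.33 ± 0.0822 in TMBIM6sh (limma adjusted p = 0.0232), a mean level 22.5% lower. In NCsh it was -0.18 with an adjusted p of 0.184. The difference between the 2 changes was -0.16, with an interval of -0.42 to 0.11. The call on Notch1 was lost when any of the 4 TMBIM6sh libraries was left out: adjusted p = 0.103 without TMBIM6sh_No RANKL replicate 1, 0.129 without its replicate 2, 0.129 without TMBIM6sh_RANKL replicate 1 and 0.0606 without its replicate 2. It was also lost with no filter on low values (0.0594). The gene 0610009E02Rik on the other strand shares 1480 bases of the Notch1 span at 4.45 to 6.12 RPKM, and the counting used both strands.

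Notch2 was lower with the hairpin under RANKL by a log2 difference of -0.36 ± 0.0828 (limma adjusted p = 0.0105), a mean level 22.8% lower. Without RANKL the difference was -0.22 (adjusted p = 0.0801). With RANKL, Notch2 differed by 0.24 in NCsh (adjusted p = 0.0882) and 0.10 in TMBIM6sh (0.486). The call on Notch2 was lost without NCsh_RANKL replicate 1 (0.0516), NCsh_RANKL replicate 2 (0.0586) or TMBIM6sh_RANKL replicate 1 (0.0657). The RANKL difference in NCsh and the hairpin difference without RANKL were each called in 2 of 15 alternatives. For both, one was voom on recovered reads with all 8 libraries (voom adjusted p = 0.0111 and 0.0110). The other left out a library of NCsh_No RANKL. Without its replicate 1 the RANKL difference was 0.36, and without its replicate 2 the hairpin difference was -0.34. Notch3 was measured at no more than 0.035 RPKM and Notch4 at 0.237 to 0.793 RPKM, neither tested.

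Within a library, the ratio of Notch2 to Notch1 per exon length was 2.61 and 2.49 in NCsh and 3.30 and 3.62 in NCsh with RANKL. It was 1.90 and 1.99 in TMBIM6sh and 2.74 and 2.67 in TMBIM6sh with RANKL. Such a ratio does not depend on library depth; Notch2 was the more abundant receptor in all 8 libraries, by the widest margin in NCsh with RANKL. The ratio of Jag1 to Notch2 was 0.519 and 0.542, then 0.362 and 0.285 with RANKL, in NCsh. It was 1.09 in both TMBIM6sh libraries without RANKL, and 0.622 and 0.550 with it. Per exon length, Jag1 stood above Notch2 in the 2 TMBIM6sh libraries without RANKL and below it in the other 6.

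**Figure D2:**
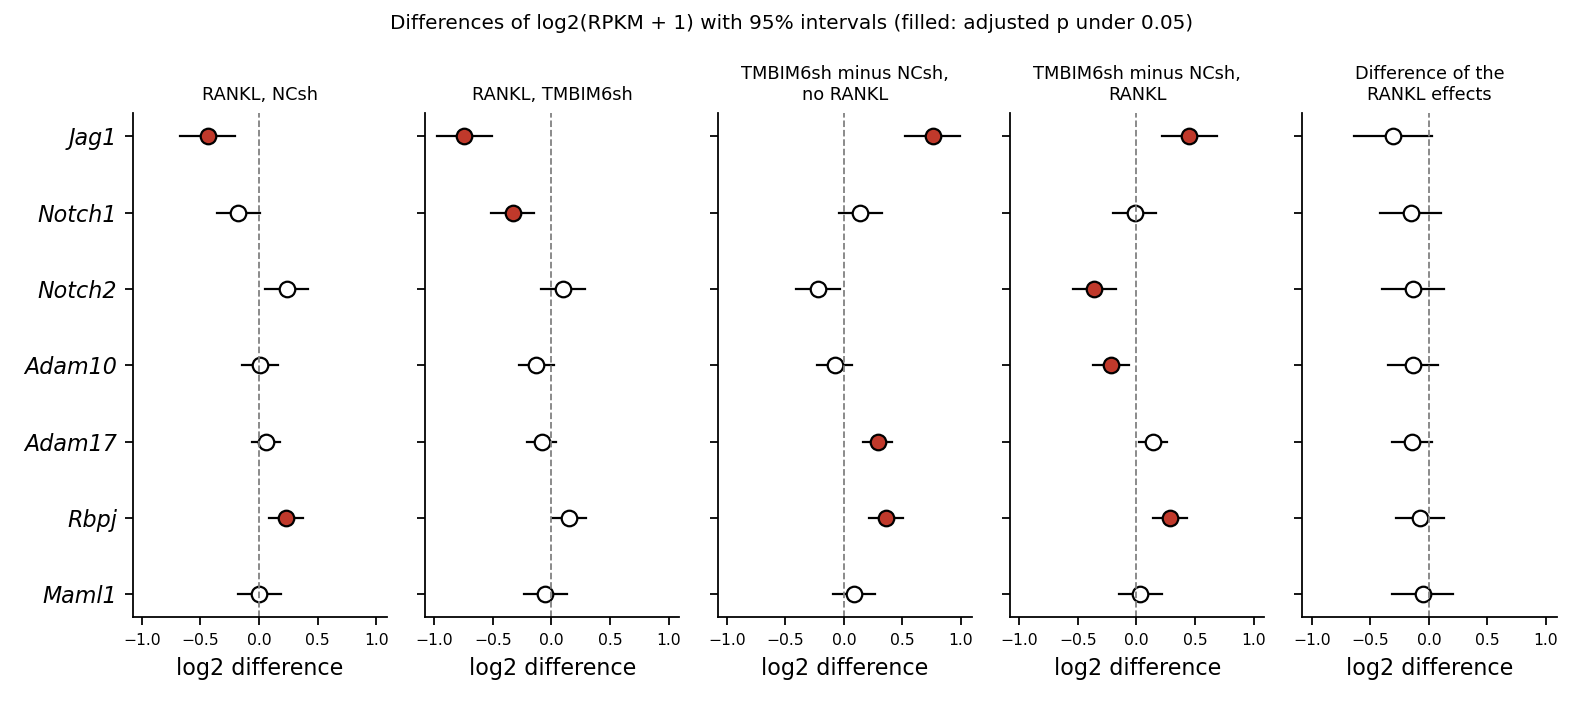
Log2 differences on log2(RPKM + 1) (horizontal axes) for the 7 tested genes, 1 panel per comparison, with 95% intervals as lines; filled points passed an adjusted p of 0.05. Jag1 is filled in the first 4 panels and Rbpj in 3 of them, and no gene is filled in the last.

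Of the sheddases, Adam17 rose with the hairpin without RANKL and Adam10 was lower with the hairpin under RANKL. Adam17 (chr12:21323509-21373632, minus strand, 19 exons) encodes the protease that also frees TNF from the membrane. It was at 76.3 and 73.1 RPKM in NCsh, 77.5 and 78.4 in NCsh with RANKL, 90.9 and 91.8 in TMBIM6sh, and 85.5 and 86.8 in TMBIM6sh with RANKL. All 4 TMBIM6sh libraries lay above all 4 NCsh libraries. Adam10 (chr9:70678982-70780229, plus strand, 16 exons), the main protease for ligand-driven Notch cleavage, was at 66.6 and 61.4 RPKM in NCsh, 61.6 and 67.1 in NCsh with RANKL, 58.6 and 62.3 in TMBIM6sh, and 55.7 and 54.7 in TMBIM6sh with RANKL. Its lowest levels were in the 2 TMBIM6sh libraries with RANKL.

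Adam17 rose by a log2 difference of 0.29 ± 0.0545 (limma adjusted p = 0.00462), 22.3% in mean RPKM; without TMBIM6sh_No RANKL replicate 2 the adjusted p was 0.0525. Under RANKL its difference was 0.14 (adjusted p = 0.0791), and it passed in 5 of 15 alternatives, among them median-ratio scaling of the libraries (0.22, adjusted p = 0.0121), the voom fit on recovered reads (0.0314), no filter on low values (0.0472) and the fits without NCsh_No RANKL replicate 1 (0.0435) or 2 (0.0431). Adam10 was lower under RANKL, with a log2 difference of -0.22 ± 0.0681 (limma adjusted p = 0.0397), or 14.2%. That call on Adam10 passed in 7 of 15 alternatives; under median-ratio scaling the difference was -0.14 (adjusted p = 0.170), with no filter the adjusted p was 0.0742, and leaving out either library of NCsh_RANKL, TMBIM6sh_No RANKL or TMBIM6sh_RANKL ended the call, with adjusted p between 0.0581 and 0.238. RANKL left both sheddases without a call, with differences of 0.01 and -0.13 for Adam10 and 0.06 and -0.08 for Adam17 in NCsh and TMBIM6sh. The ratio of Adam17 to Adam10 was 1.15 and 1.19 in NCsh and 1.26 and 1.17 in NCsh with RANKL. It was 1.55 and 1.47 in TMBIM6sh and 1.54 and 1.59 in TMBIM6sh with RANKL, so all 4 TMBIM6sh libraries stood above the NCsh libraries. The Adam17 span shares 99 bases with Iah1 on the other strand, at 12.0 to 15.0 RPKM.

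Rbpj rose with the hairpin both without and with RANKL. Rbpj lies at chr5:53590346-53657445 on the plus strand and has 11 exons. Its levels were 63.3 and 57.1 RPKM in NCsh, 69.6 and 71.8 in NCsh with RANKL, 78.2 and 76.9 in TMBIM6sh, and 84.3 and 88.3 in TMBIM6sh with RANKL. The 4 groups did not overlap and stood in that order. The hairpin difference was 0.36 ± 0.0648 without RANKL (limma adjusted p = 0.00336), or 28.9% in mean RPKM, and held in 15 of 15 alternatives. With RANKL it was 0.28 ± 0.0648 (adjusted p = 0.00988), or 22.1%, and was lost without NCsh_RANKL replicate 1 (0.0769) or TMBIM6sh_RANKL replicate 2 (0.0605).

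Rbpj rose with RANKL in NCsh by 0.23 ± 0.0648 (limma adjusted p = 0.0418), 17.5% in mean RPKM, but this call held in 4 of 15 alternatives. Under median-ratio scaling the difference was 0.15 (adjusted p = 0.158), in a fit of those 4 libraries it had an adjusted p of 0.112, and with no filter 0.0738. It was lost without any single library except NCsh_No RANKL replicate 1, with adjusted p from 0.0516 to 0.189. In TMBIM6sh the RANKL difference was 0.15 (adjusted p = 0.157). It was called in 1 of 15 alternatives, voom on recovered reads (voom adjusted p = 0.0406). The difference between the RANKL changes was -0.08 with an interval of -0.28 to 0.13. Genomic copies Rbpj-ps1 (chr4:49350522-49351527) and Rbpj-ps3 (chr6:46529354-46530794) are processed pseudogenes, so reads that fit several copies leave the level of Rbpj uncertain.

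Maml1, the Mastermind coactivator that bridges RBPJ and the Notch intracellular domain, was not called in any of the 5 comparisons. Maml1 (chr11:50255635-50292336, minus strand, 5 exons) was at 7.65 and 6.88 RPKM in NCsh, 7.43 and 7.10 in NCsh with RANKL, 7.43 and 8.12 in TMBIM6sh, and 7.51 and 7.39 in TMBIM6sh with RANKL. The groups overlapped in all 4 comparisons. Its largest difference in those 4, for the hairpin without RANKL, was 0.09 on the log2 scale with an interval of -0.10 to 0.27, and none of the alternatives run called it.

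Hes1, the target most often read as a sign of Notch activity, was hardly measured. Hes1 (chr16:30065357-30067796, plus strand, 4 exons) was at 0 and 0.243 RPKM in NCsh, 0.054 and 0.484 in NCsh with RANKL, 0.152 and 0.388 in TMBIM6sh, and 0.161 and 0.244 in TMBIM6sh with RANKL. These values stand for 0 to 20 reads a library, and the groups overlapped in every comparison. A difference in Hes1 was not detectable at this depth. The targets Hes5 and Heyl were listed at 0 in all 8 libraries, and Hes7, Hey1, Hey2, Nrarp, Dtx1, Ptcra and Il2ra stayed below 1 RPKM in each.

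The calls on the 8 genes were then read against all 11040 genes tested. For RANKL in NCsh, 2 of the 7 tested genes were called (Rbpj higher, Jag1 lower), beside 15.0% of all genes. For RANKL in TMBIM6sh, 2 of 7 were called (Jag1 and Notch1, both lower), beside 15.4%. For the hairpin without RANKL, 3 of 7 were called (Jag1, Rbpj and Adam17, all higher), beside 24.2%. For the hairpin with RANKL, 4 of 7 were called (Jag1 and Rbpj higher, Notch2 and Adam10 lower), beside 28.6%. With so few genes these shares are a description, and the genes were not picked at random. The median log2 differences of the 7 were 0.01, -0.08, 0.14 and 0.03, beside 0.06, 0.02, -0.02 and -0.07 over all genes.

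For the difference of the RANKL effects 0 of the 7 were called with limma, 0 had an unadjusted p under 0.05 and 0 were called with voom on recovered reads. Over all genes 1 was called, or 0.00906%, and 857 had an unadjusted p under 0.05. The smallest p among the 7 was that of Jag1, 0.0648. The RANKL comparisons share no library with each other, and neither do the hairpin comparisons; a RANKL and a hairpin comparison share a group. Between the hairpin comparisons Jag1 and Rbpj were called higher in both and 0 of the 7 were called in opposite directions. Over all genes 724 were called higher in both, 1218 lower in both and 4 in opposite directions. Between the RANKL comparisons Jag1 was called lower in both, as were 345 of all genes.

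The share of genes called higher depended on scaling. For RANKL in NCsh, 1214 genes were higher and 439 lower, against 787 and 850 under median-ratio scaling. For the hairpin with RANKL, 986 were higher and 2171 lower, against 1608 and 1621. The median of all genes moved by less than 0.1 on the log2 scale. Of the members' calls, scaling took away the 2 named above, Rbpj for RANKL in NCsh and Adam10 for the hairpin with RANKL.

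The rest of the pathway was followed in 81 further genes, of which 59 were tested. For RANKL in NCsh 7 were higher and 2 lower (15.3% called, beside 15.0% of all genes), and under median-ratio scaling 4 and 3. For RANKL in TMBIM6sh 4 were higher and 8 lower (20.3%, beside 15.4%). For the hairpin without RANKL 10 were higher and 7 lower (28.8%, beside 24.2%). For the hairpin with RANKL 6 were higher and 13 lower (32.2%, beside 28.6%, with more lower than higher over all genes too), and under scaling 9 and 11. For the difference of the RANKL effects limma called 0, voom 0, and 2 had an unadjusted p under 0.05. The median log2 differences in the first 4 comparisons were 0.05, -0.03, 0.03 and -0.07, beside 0.06, 0.02, -0.02 and -0.07 over all genes. The calls that held in every alternative run were 3 of 9 for RANKL in NCsh (Neurl1b, Myc and Ccnd1), 5 of 12 for RANKL in TMBIM6sh (the same 3 with Psen2 and Tle3), 6 of 17 for the hairpin without RANKL (Lfng, Pofut1, Ncstn, Aph1c, Ctbp2 and Dtx4) and 10 of 19 for the hairpin with RANKL (those 6 with Mib1, Rhbdf2, Tspan14 and Cdk8). Each other call was lost in at least 1 alternative. Neurl1b, which reached 1 RPKM only with RANKL, was left out by the filter of 1 RPKM in all 8 libraries.

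**Figure D3:**
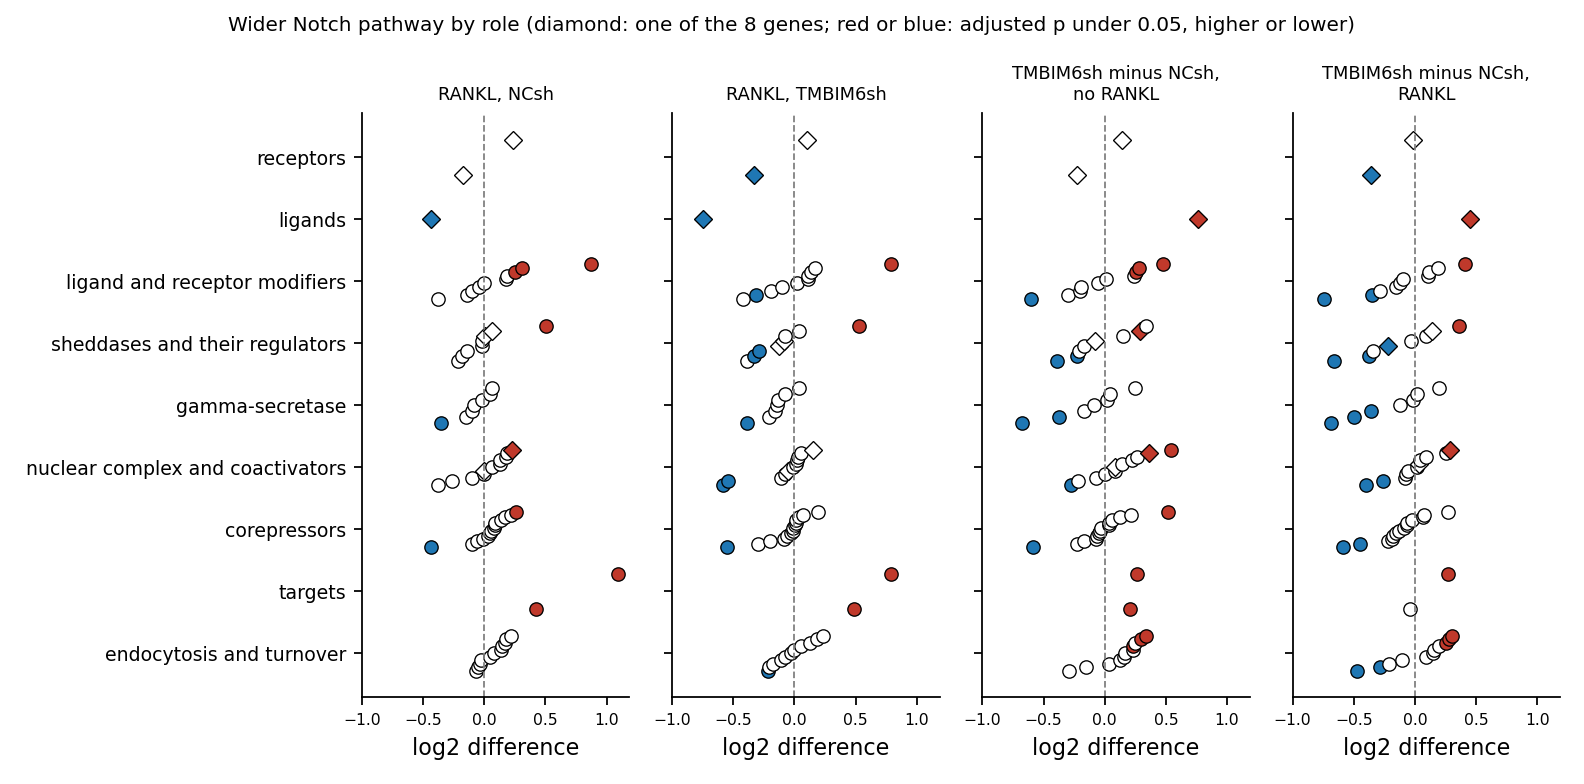
Log2 differences (horizontal axes) of the tested pathway genes, in rows by role and 1 panel per comparison; diamonds are the genes this account is about, circles the others, and red or blue fill marks an adjusted p under 0.05. The gamma-secretase row has blue points on the left and no red point in any panel.

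Of 10 genes whose products modify ligands and receptors, 3 were called higher and 1 lower with the hairpin without RANKL, and 1 higher and 2 lower with it (40.0% and 30.0% called, beside 24.2% and 28.6% of all genes). Lfng was lower and Pofut1 higher in both. Lfng, the fringe glycosyltransferase that lengthens the O-fucose on Notch and so alters which ligand binds, was at 30.0 and 29.6 RPKM in NCsh and 20.3 and 18.3 in TMBIM6sh. With RANKL it was at 38.6 and 35.7 RPKM in NCsh and 21.5 and 22.1 in TMBIM6sh. Lfng was lower with the hairpin (log2 -0.60, limma adjusted p = 3.08e-04) and under RANKL (log2 -0.74, adjusted p = 8.20e-05), and the TMBIM6sh libraries lay below all NCsh libraries. Pofut1, which adds that O-fucose, was at 6.88 and 5.93 RPKM in NCsh and 9.13 and 9.44 in TMBIM6sh, and with RANKL at 7.36 and 7.40 against 10.1 and 10.2. It rose by 0.48 (adjusted p = 0.00250) and 0.41 (0.00493). Both kept their hairpin calls in 15 of 15 alternatives. Mfng and Rfng, the other fringe genes, were at 1.04 to 1.83 RPKM and 3.15 to 4.78 RPKM and were not called in the 5 comparisons.

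Of the 4 tested E3 ligases that pull the ligand inward, Neurl1b was called with RANKL and Mib1 with the hairpin under RANKL. Mib2 and Neurl1a were not called in the 5 comparisons. Over all genes 15.0% and 15.4% were called with RANKL in NCsh and TMBIM6sh, and 28.6% with the hairpin under RANKL. Neurl1b rose with RANKL by 0.87 in NCsh (limma adjusted p = 0.00230) and 0.79 in TMBIM6sh (0.00317). In NCsh it went from 0.629 and 0.715 to 2.10 and 2.02 RPKM. Neurl1b was below 1 RPKM in every library without RANKL, so only the RANKL libraries took it past the filter. Mib1 was lower with the hairpin under RANKL (log2 -0.35, adjusted p = 0.00354), at 20.0 and 19.1 RPKM against 25.0 and 25.3. Furin, the protease that cuts the Notch precursor, rose with the hairpin without RANKL by 0.28 (0.0222) and fell with RANKL in TMBIM6sh (log2 -0.31, adjusted p = 0.0182). Poglut1, which adds O-glucose to Notch, rose with the hairpin without RANKL by 0.25 (0.0340) and with RANKL in NCsh by 0.25 (0.0493), the latter in 1 of 15 alternatives. Lfng rose with RANKL in NCsh by 0.31 (0.0174), a call lost under median-ratio scaling.

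Of the genes for iRhoms and tetraspanins, the protein families that carry the sheddases to the surface, 6 were tested. Rhbdf2 and Tspan14 were lower with the hairpin without and with RANKL, and Tspan33 was higher with it under RANKL. Over all genes 24.2% and 28.6% were called in these comparisons, so calls on so few genes are a description. Rhbdf1, Tspan5 and Tspan17 were not called in the 5 comparisons, with hairpin differences of -0.17, -0.21 and 0.15 without RANKL and -0.34, -0.03 and 0.09 with it. Rhbdf2 encodes iRhom2, which escorts ADAM17. It was at 28.0 and 25.0 RPKM in NCsh and 19.5 and 20.5 in TMBIM6sh, and with RANKL at 26.5 and 25.6 against 15.0 and 17.3. The differences of Rhbdf2 were -0.39 (limma adjusted p = 0.00838) and -0.66 (4.34e-04). Adam17 rose in the first of these comparisons. Tspan14, a tetraspanin that escorts ADAM10, was at 26.0 and 25.8 RPKM in NCsh and 21.6 and 22.3 in TMBIM6sh, with differences of -0.23 (0.0198) and, under RANKL, -0.38 (0.00140). Tspan33, another tetraspanin, rose with RANKL by 0.50 in NCsh (0.0188) and 0.53 in TMBIM6sh (0.0134) and with the hairpin under RANKL by 0.36 (0.0422), at 1.63 to 4.17 RPKM. With RANKL in TMBIM6sh, Tspan14 fell (log2 -0.33, adjusted p = 0.00465) and Rhbdf2 (log2 -0.29, adjusted p = 0.0421).

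**Figure D4:**
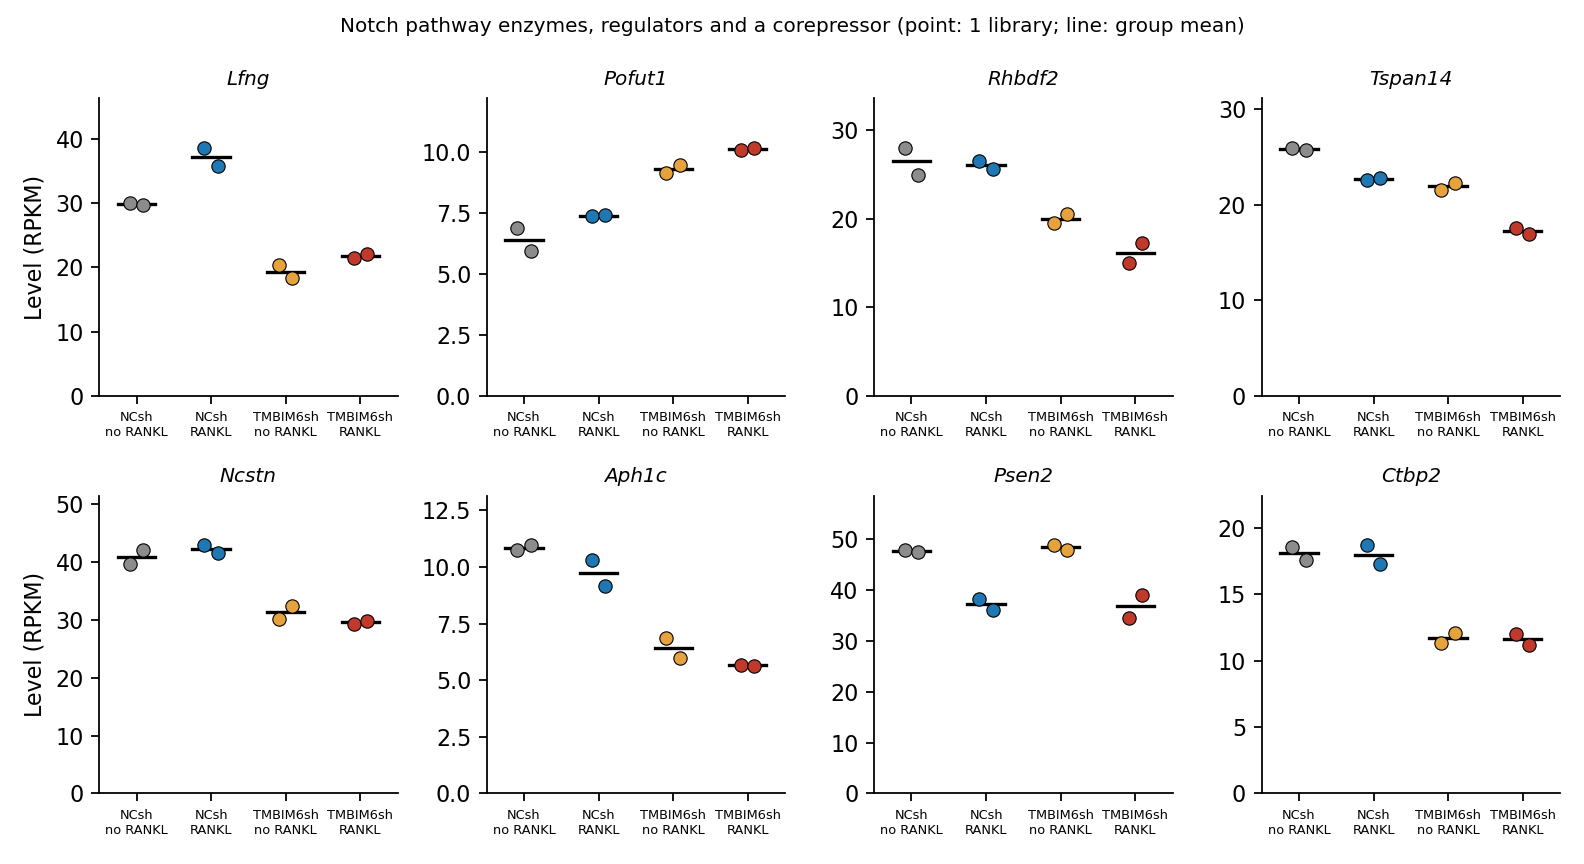
Levels in RPKM (vertical axes, linear, starting at 0) of 8 pathway genes chosen after their values were seen, by group, with points for single libraries and lines for group means. Lfng, Rhbdf2, Ncstn, Aph1c and Ctbp2 lie lower in the 4 TMBIM6sh libraries, Pofut1 lies higher, and Psen2 lies lower in the 4 RANKL libraries.

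Of the 7 gamma-secretase genes, 2 were called lower with the hairpin without RANKL and 3 with RANKL (28.6% and 42.9%), and 0 higher. Over all genes 13.8% and 19.7% were called lower and 10.4% and 8.93% higher, and with 7 genes the counts are a description. Ncstn encodes nicastrin, the subunit that receives the substrate. It was at 39.6 and 42.1 RPKM in NCsh and 30.2 and 32.4 in TMBIM6sh, and with RANKL at 42.9 and 41.6 against 29.2 and 29.8. The differences of Ncstn were -0.38 (limma adjusted p = 0.00231) and -0.50 (4.20e-04). Aph1c, a scaffold subunit, was at 10.8 and 11.0 RPKM in NCsh and 6.87 and 5.99 in TMBIM6sh, and with RANKL at 10.3 and 9.14 against 5.69 and 5.62. Its differences were -0.68 (5.54e-04) and -0.69 (4.54e-04). Aph1b was lower under RANKL (log2 -0.36, adjusted p = 0.0431), which scaling took away. Aph1b and Aph1c are near-identical copies, so the split of reads between them is uncertain. Psen2, a gene for a catalytic subunit, fell with RANKL in NCsh (log2 -0.35, adjusted p = 0.00883) and in TMBIM6sh (-0.39, 0.00444), from 47.8 and 47.6 to 38.2 and 36.2 RPKM in NCsh.

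Of 14 tested corepressor genes, 1 was called higher and 1 lower with the hairpin without RANKL. With RANKL, 0 were higher and 2 lower. That is 14.3% called in each, beside 24.2% and 28.6% of all genes. Ctbp2, a corepressor, was lower with the hairpin, at 18.6 and 17.6 RPKM in NCsh and 11.4 and 12.1 in TMBIM6sh. With RANKL it was at 18.7 and 17.3 RPKM against 12.0 and 11.2. The differences of Ctbp2 were -0.59 (limma adjusted p = 4.82e-04) and -0.59 (4.13e-04). Tle1, a Groucho corepressor, rose with the hairpin without RANKL by 0.52 (0.00836), and Tle3 fell with RANKL in NCsh (log2 -0.43, adjusted p = 0.00941) and in TMBIM6sh (-0.55, 0.00224). Hdac2, a histone deacetylase, rose with RANKL in NCsh by 0.26 (0.0261), lost under scaling. L3mbtl3, a corepressor that binds RBPJ, was lower with the hairpin under RANKL (log2 -0.45, adjusted p = 0.0315), at 1.32 and 1.92 RPKM against 2.60 and 2.50.

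Among the coactivators, Cdk8, the kinase that marks the Notch intracellular domain for turnover, was lower with the hairpin (log2 -0.27, limma adjusted p = 0.0362), which scaling took away, and under RANKL (log2 -0.40, adjusted p = 0.00560). Kat2b, a histone acetyltransferase, was lower under RANKL (log2 -0.26, adjusted p = 0.0462), also lost under scaling. Of the relatives of Maml1, Maml2 rose with the hairpin without RANKL by 0.54 (0.0163) and fell with RANKL in TMBIM6sh (log2 -0.55, adjusted p = 0.0209), where Maml3 also fell (log2 -0.58, adjusted p = 0.0314). The levels of Maml2 and Maml3 were low, at 1.04 to 2.97 and 0.392 to 1.40 RPKM. Maml3 reached 1 RPKM only in libraries without RANKL, so it passed the filter through these. No test compared them with Maml1.

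Of 11 tested genes of endocytosis and receptor turnover, 3 were called higher and 0 lower with the hairpin without RANKL, and 3 higher and 2 lower with it (27.3% and 45.5%, beside 24.2% and 28.6% of all genes). With RANKL 0 were called in NCsh and 1 in TMBIM6sh (9.09%, beside 15.0% and 15.4%). All genes too were called more often with the hairpin than with RANKL. Dtx4, a Deltex ubiquitin ligase, rose by 0.33 (limma adjusted p = 0.00293) and 0.30 (0.00433) without and with RANKL. Fbxw7, the ligase adaptor that targets the Notch intracellular domain, rose by 0.30 (0.0340) and 0.28 (0.0385). These calls on Fbxw7 held in 9 and 6 of 15 alternatives. Under RANKL, Dtx2 rose by 0.26 (0.0359), a call that held in 8 of 15 alternatives. Itch, a ligase for Notch, and the Deltex relative Dtx3l were lower under RANKL, with log2 differences of -0.28 (0.00753) and -0.48 (0.0111). Dnm2, the dynamin of endocytosis, rose with the hairpin without RANKL by 0.23 (0.0157) and fell with RANKL in TMBIM6sh (log2 -0.21, adjusted p = 0.0318).

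Of the 12 listed targets, Myc and Ccnd1 were tested, and many other pathways act on both. Myc was at 10.8 and 11.2 RPKM in NCsh and 24.4 and 24.8 with RANKL, and at 14.0 and 12.8 in TMBIM6sh and 22.8 and 25.1 with RANKL. It rose with RANKL by 1.09 (limma adjusted p = 4.54e-05) and 0.79 (1.16e-04). With the hairpin without RANKL it rose by 0.26 (0.0260), a call that held in 10 of 15 alternatives. Under RANKL the hairpin difference of Myc was -0.04 and was not called (0.719). Ccnd1, cyclin D1, rose with RANKL by 0.42 (0.00167) and 0.49 (5.55e-04) and with the hairpin by 0.20 (0.0330) and 0.27 (0.00807). Its levels were 147 and 143 RPKM in NCsh, 200 and 188 in NCsh with RANKL, 166 and 168 in TMBIM6sh, and 238 and 231 in TMBIM6sh with RANKL. The 4 RANKL libraries were the highest for each of the 2 genes.

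Over both hairpin comparisons 4 of the 59 further genes were called higher in each (Pofut1, Dtx4, Fbxw7 and Ccnd1), 7 lower in each (Lfng, Rhbdf2, Tspan14, Ncstn, Aph1c, Cdk8 and Ctbp2) and 0 in opposite directions. These are 6.78% and 11.9% of the 59, beside 6.56% and 11.0% of all genes tested. Over both RANKL comparisons 4 were called higher in each (Neurl1b, Tspan33, Myc and Ccnd1) and 2 lower (Psen2 and Tle3), or 6.78% and 3.39%, beside 6.18% and 3.12% of all genes. The shares lie near those of all genes. Neurl1b is in these RANKL counts only because its RANKL libraries took it past the filter.

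Among osteoclast regulators linked to RBPJ, Irf8 fell and Fos rose with RANKL in NCsh and in TMBIM6sh. Irf8, a repressor of osteoclast formation, was at 53.0 and 51.8 RPKM in NCsh and 35.9 and 36.0 with RANKL. In TMBIM6sh it was at 53.3 and 53.7 RPKM without RANKL and 30.9 and 34.6 with it. Irf8 fell with RANKL in NCsh (log2 -0.53, limma adjusted p = 9.35e-04) and in TMBIM6sh (-0.69, 1.37e-04). Fos, a factor osteoclasts need to form, rose by 0.72 (1.05e-04) and 0.77 (3.96e-05), from 52.5 and 50.0 to 86.8 and 83.8 RPKM in NCsh and from 57.6 and 56.2 to 97.1 and 98.1 in TMBIM6sh. With RANKL, Fos was higher in TMBIM6sh than in NCsh by 0.19 (0.0299), a call that held in 9 of 15 alternatives.

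Prdm1, whose product BLIMP1 represses Irf8, rose with the hairpin, at 1.82 and 1.94 RPKM in NCsh and 2.54 and 3.01 in TMBIM6sh, and with RANKL at 1.94 and 1.59 against 3.20 and 3.50. The differences of Prdm1 were 0.39 (limma adjusted p = 0.0393, held in 6 of 15 alternatives) and 0.66 (0.00288, held in 15 of 15). Irf8 was not called with the hairpin, with differences of 0.03 and -0.13. Bcl6, another repressor, rose with the hairpin without RANKL by 0.24 (0.0210) and fell with RANKL in TMBIM6sh (log2 -0.25, adjusted p = 0.0237). Nfatc1, the master regulator of osteoclasts, was at 5.58 to 6.92 RPKM and was not called in the 5 comparisons. Neither were the factor Spi1 (PU.1), the ITAM adaptors Tyrobp and Fcer1g, or Plcg2, the phospholipase downstream of them.

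**Figure D5:**
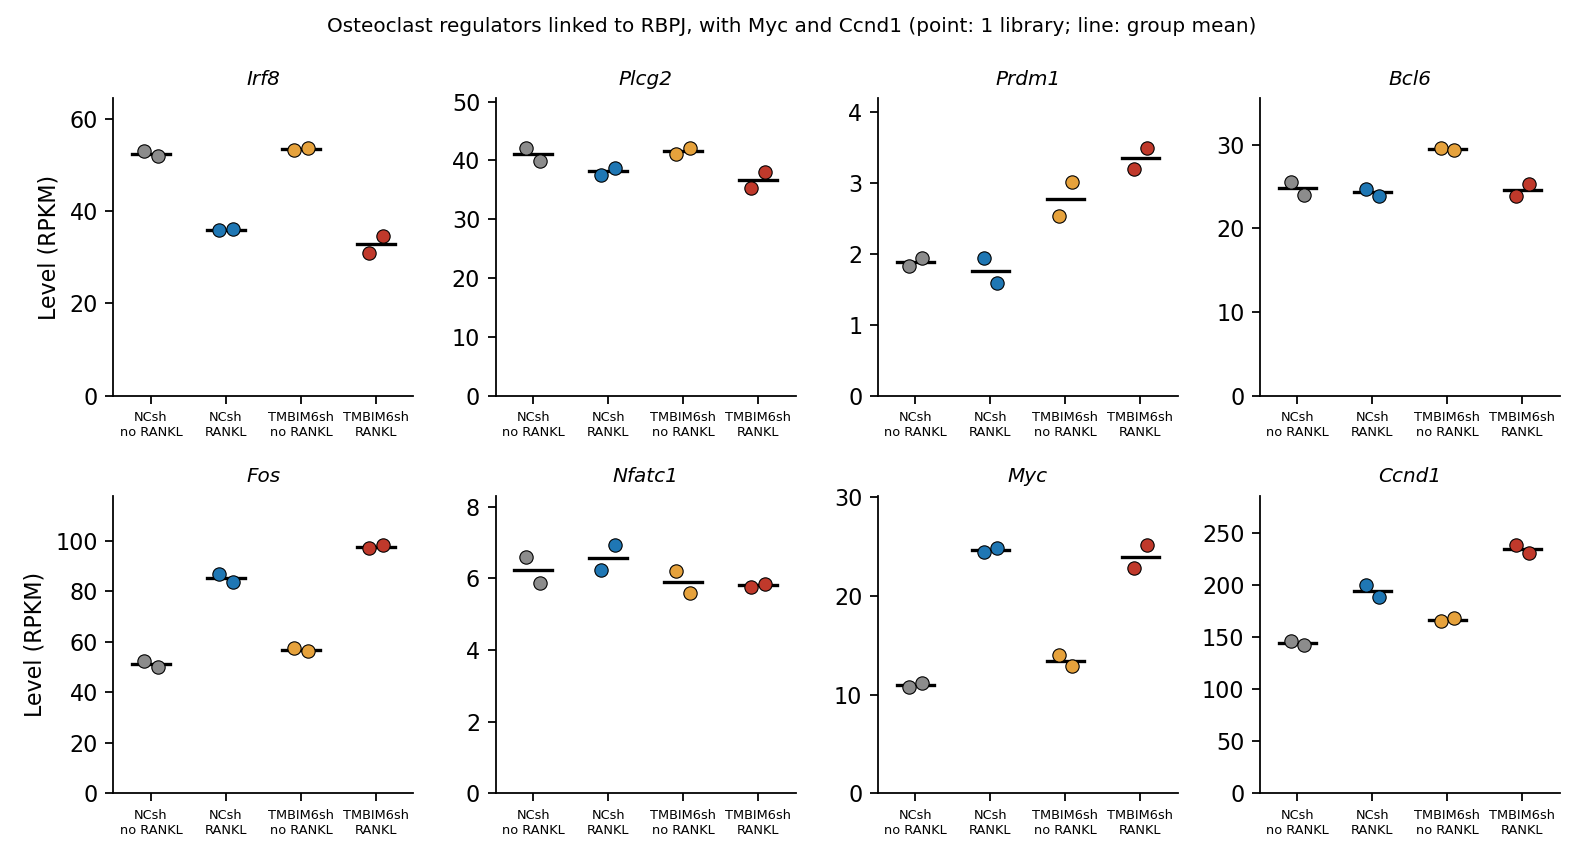
Levels in RPKM (vertical axes, linear, starting at 0) of 6 osteoclast regulators linked to RBPJ and of Myc and Ccnd1, by group, with points for single libraries and lines for group means. Irf8 lies lower and Fos, Myc and Ccnd1 higher in the 4 RANKL libraries, and Prdm1 lies higher in the 4 TMBIM6sh libraries.

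Rbpj and Jag1 were the members called in at least 2 comparisons, and the genes most like them over the 8 libraries were found among 7533 tested genes averaging at least 5 RPKM, by Pearson r of log2(RPKM + 1). The genes closest to Rbpj were Ube2o (r = 0.990), Ocrl (0.983) and Nrp2 (0.982). Nrp2, a neuropilin receptor, had mean levels of 78.2, 108 and 118 RPKM in NCsh, NCsh with RANKL and TMBIM6sh, and 156 in TMBIM6sh with RANKL, the order seen for Rbpj. The genes closest to Jag1 were Ets2 (0.980), Zfp710 (0.979) and Rap2a (0.979). Ets2, a transcription factor, had mean levels of 53.8, 41.2, 80.0 and 57.9 RPKM in the same order of groups. The 8 points of each r share their 4 groups, so these values describe likeness and carry no test.

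Facts of the whole data set that bear on these results are few. Depth was 25475000 to 28595000 reads a library (rounded), and 15103 to 15396 genes were above 0. All 10 macrophage markers were measured, summing to 7639 to 11002 RPKM. With RANKL 5 of them were called lower in NCsh and 5 in TMBIM6sh, beside 3.98% and 6.89% of all genes. With the hairpin 1 and 3 were called lower without and with RANKL, beside 13.8% and 19.7% of all genes. Of 9 osteoclast markers 5 stayed below 1 RPKM, with Ctsk at no more than 0.075, and 4 were tested. Of these Mmp9 rose with RANKL by 1.18 in NCsh and 1.66 in TMBIM6sh, Atp6v0d2 fell (log2 -0.27 and -0.50), and Acp5 and Dcstamp were not called. With the hairpin Mmp9 was higher by 0.74 and 1.22 and Atp6v0d2 lower (log2 -0.54 and -0.77) without and with RANKL. Of 7 neutrophil markers Ly6g was at 0 and S100a8 made up nearly all of the sum, which was 22.5 to 28.1 RPKM in NCsh and 11.5 to 15.5 in TMBIM6sh; S100a8 was lower with the hairpin (log2 -0.86, and -0.85 under RANKL). Lymphocyte, dendritic cell, and erythroid, mast and basophil markers summed to no more than 0.212, 1.14 and 0.121 RPKM. The part of these shifts in the Notch pathway differences was not tested.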

How the data were processed

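Per the file header, the authors made the RPKM values with HOMER's analyzeRepeats on mm10 RefSeq genes, counting reads over exons on both strands, condensing isoforms to 1 entry per gene and dividing by exon length and library reads; the column heads say FPKM. HISAT2 and DESeq2 are also named, per the submitters' processing notes, and their use and versions are not given in the sources used here. The values rise in steps of 1 read, from which reads per gene were recovered (4638 to 5224 values checked a library, 100% whole within 0.1 reads).

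Groups came from the sample titles. limma 3.58.1 in R 4.3.3 was fitted to log2(RPKM + 1) of the 11040 genes at 1 RPKM or more in at least 2 of 8 libraries, with 1 mean per group, a spread shared by all 8 libraries (4 residual degrees of freedom) and a trend on mean level. P-values were two-sided and adjusted by Benjamini-Hochberg over the genes tested, with a threshold of 0.05; the pseudocount understates changes of low genes. Permutation tests were not used, since groups of 2 allow a two-sided p of 0.333 at best. Alternatives were a pseudocount of 0.1, no filter, a filter of 1 RPKM in all 8 libraries, median-ratio scaling, a replicate block, a fit of the 4 libraries compared, leaving out each library, and voom on recovered reads. The code was tested on simulated data.

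The members and gene lists were chosen with earlier results of these data known. Named are all members, every further pathway gene called in at least 1 of the 5 comparisons, all receptors and ligands, RBPJ-linked regulators, Tmbim6, and the 3 genes most correlated with each member called in at least 2 comparisons. Figures and sequence searches used Python 3.11.15, pandas 2.3.3 and matplotlib 3.10.9. Results for 2 of the listed genes are not reported here.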

Additional observations from a re-analysis of the deposited data

How the results depend on the processing

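The log2 differences of the 7 tested members kept their direction wherever they were called. Over all comparisons and alternatives 471 values stayed on their side of the threshold, 37 lost a call and 10 gained one. Of the called values 0 reversed. Some uncalled ones changed sign, such as Adam17 for RANKL in NCsh (-0.02 to 0.09). The number of members called for RANKL in NCsh was 2, and became 0 with no filter, 1 under median-ratio scaling, 1 with the replicate block, 0 in the 4-library fit and 0 to 2 when single libraries were left out. For RANKL in TMBIM6sh it went from 2 to 1 with no filter and to 1 to 2 without single libraries, and for the hairpin with RANKL from 4 to 1 to 5. Over all genes, RANKL in NCsh called 1653, against 1020 in the 4-library fit, 2480 with voom and 694 to 1520 without single libraries. Without single libraries, RANKL in TMBIM6sh called 826 to 2056, the hairpin without RANKL 1396 to 2523 and the hairpin with RANKL 1870 to 3558. The difference of the RANKL effects called 1 gene, against 8 with no filter, 0 with the stricter filter and 0 to 2 without single libraries; it needs all 4 groups, so the 4-library fit was not run for it. A group with a library left out rests on 1 library, assumed to vary like the others. Same-numbered libraries did not deviate together (correlations -0.07 to 0.06), so the replicate block is a check only; besides the call on Rbpj for RANKL in NCsh (adjusted p = 0.0503) it changed no call on a member. With 4 residual degrees of freedom, a missed threshold does not show that levels were alike, and Hes1 lies below what this depth can compare.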
